A study of Mus musculus with 4 samples.

Results

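The Krüppel-like factors are a family of transcription factors, and 10 of them were described here: Klf2, Klf3, Klf4, Klf5, Klf6, Klf7, Klf9, Klf10, Klf13 and Klf15. Their members were taken as the array probes whose gene name, or whose current symbol by RefSeq accession, was one of these 10, which gave 11 probes, since Klf13 had 2. Each of the 10 genes gave a signal well above background on every array, and all 10 entered the comparison, among 24518 features tested. The RNA came from adipocyte progenitor cells of subcutaneous fat. Male FVB mice, 4 weeks old, were the source, and the cells were purified by FACS and lysed directly, with no culture and no treatment. The study set 2 wild-type samples against 2 samples from Adamts1 transgenic mice, with 1 single-colour Agilent array for each sample. Adamts1 encodes a secreted protease that cuts matrix proteoglycans. Which promoter drives the transgene, which cells express it and whether a sample is 1 mouse or a pool are not stated in the labels, so p-values reflect only how far these samples vary, which may be technical.

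Krüppel-like factors bind GC-rich DNA and CACCC boxes through zinc fingers at the end of the protein, while the rest of the protein, which differs between members, recruits co-activators or co-repressors. Several of them act in the making of fat cells. Klf4 and Klf5 act early and switch on C/EBP and Pparg genes in cell culture, Klf15 acts late, and Klf2, Klf3 and Klf7 hold precursors back. Some, such as Klf2, Klf4, Klf6 and Klf10, are also induced within minutes to hours by growth factors, flow, TGF-beta or cell handling.

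Klf3 was lower in the transgenic samples and was the 1 member of the 10 that passed the test. Klf2 was lower by a similar amount with a wider error and did not pass. Klf4, Klf6 and Klf13 were lower on both transgenic arrays than on both wild-type arrays by smaller amounts that did not pass, and for Klf5, Klf7, Klf9, Klf10 and Klf15 the groups overlapped. Signals are given as log2 of the processed intensity after subtraction of each array's 75th percentile, so that 0 is a spot at that percentile, and differences are transgenic minus wild-type on this log2 scale with the standard error of the limma fit. A gene was called where its p-value, adjusted over all features by the Benjamini-Hochberg method, was under 0.05. Of the 10 members 1 was called lower, where 0.759% of all features were, and 0 were called higher, where 0.967% were. In either direction 1.73% of features were called. At an unadjusted p under 0.05 there were 3 of the 10, Klf2, Klf3 and Klf4, against 19.0% of all features. The transgenic arrays lay wholly below the wild-type arrays for 5 of the 10, against 28.6% of features, and wholly above for 0, against 24.5%. The median difference of the 10 was -0.22, and that of all features was -0.02. Over features above background on all 4 arrays, as the 10 members were, it was -0.05. Neither set of features was matched to the members in brightness, so these medians and shares do not show a trait of the family. The shares of all features include 4255 let in through the transgenic arrays alone.

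**Figure D1:**
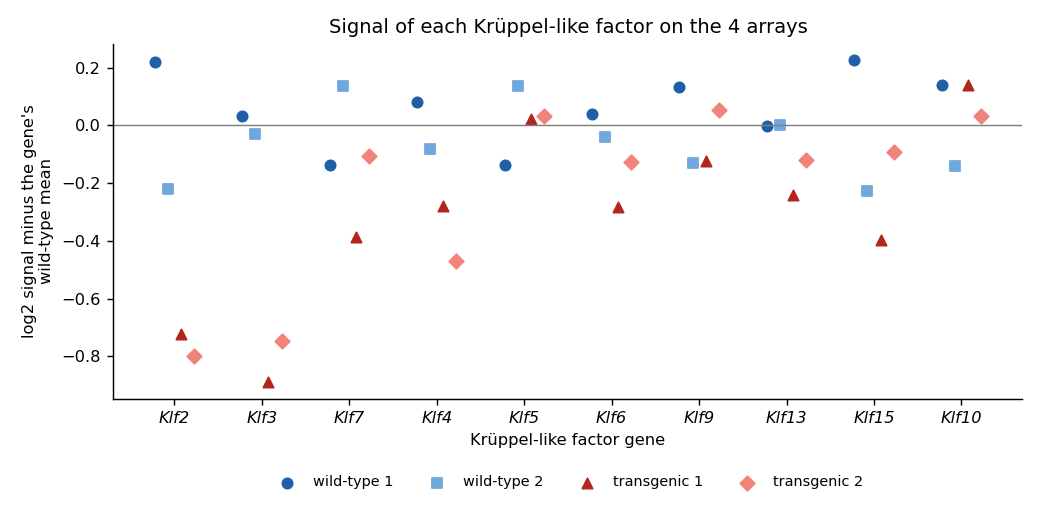
Log2 signal of each of the 10 Krüppel-like factors on the 4 arrays, minus the mean of its 2 wild-type arrays (grey line at 0). Both transgenic points of Klf3 and of Klf2 lie below both wild-type points, and for Klf5, Klf7, Klf9, Klf10 and Klf15 the groups overlap.

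The 4 arrays were not equally bright. The 75th percentile of processed intensity was 239.3 on wild-type array 1 and 333.5 to 353.9 on the other 3, and the share of spots well above background was 47.04% there against 55.54% to 56.98%. The wild-type arrays correlated at 0.984 over all features and the transgenic arrays at 0.994, while with the transgenic arrays wild-type array 1 correlated at 0.977 and wild-type array 2 at 0.984, as high as with wild-type array 1. The SD over features of the gap between arrays of a group was 0.577 for wild-type and 0.345 for transgenic samples. Adamts1 itself gave a difference of 0.11 ± 0.09 (adjusted p = 0.573 in the limma fit), with no detectable rise at its probe, and whether that probe reads the transgene is not given. Exact permutation of 2 against 2 arrays has a smallest 2-sided p of 1 in 3, so all p-values below come from the limma fit over all features. Values without wild-type array 1 are given where leaving it out turned a sign, changed a call or moved a member's difference by more than 1.5 times.

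Among the members that hold fat cell precursors back, Klf3, which represses transcription through the co-repressor CtBP, gave signals of 5.67 and 5.61 on the wild-type arrays and 4.75 and 4.89 on the transgenic arrays. The groups were well apart, and the gap between them was several times the gap within either. The difference of Klf3 was -0.82 ± 0.09, which is 1.76-fold lower (95% interval 1.498 to 2.076, n = 2 per group, adjusted p = 0.0317). Without wild-type array 1 it was -0.79, without transgenic array 1 -0.75 and without transgenic array 2 -0.89. Klf3 was not called in the last 2 of these fits, where the spread came from the wild-type pair alone. That pair lay further apart over all features than the transgenic pair. The call was also lost when the variance prior had no trend with intensity (adjusted p = 0.118), where limma called 0 features in all and 4124 had an unadjusted p under 0.05. The unscaled intensities of Klf3 were 12176 and 16257 against 9509 and 10387, so its groups were apart before any scaling too. In a bulk sample, fewer cells of a type and less RNA per cell cannot be told apart.

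Klf2, a repressor of Pparg in preadipocytes and a flow-induced factor of endothelial cells, gave 5.61 and 5.17 on the wild-type arrays and 4.67 and 4.59 on the transgenic arrays. The wild-type arrays were 0.44 apart and the transgenic arrays 0.08, and the groups did not overlap. The difference was -0.76 ± 0.16, 1.69-fold lower in the transgenic samples with a 95% interval of 1.285 to 2.233, and adjusted p = 0.0952 in the limma fit left it uncalled. It was called with normexp background correction (-0.70, adjusted p = 0.0477). With either wild-type array left out Klf2 was called, but the spread then came from the transgenic pair alone, which lay closer together. The difference of Klf2 was -0.54 without wild-type array 1 and -0.98 without wild-type array 2. It was -0.80 without transgenic array 1 and -0.72 without transgenic array 2. Unscaled intensities were 11663 and 11984 in wild-type and 8985 and 8416 in transgenic samples. Klf7, reported to impair adipogenesis when overexpressed in human preadipocytes, gave 3.95 and 4.22 against 3.70 and 3.98. Its groups overlapped, and the difference was -0.25 ± 0.14 (95% interval -0.61 to 0.12, adjusted p = 0.408 in the limma fit), or -0.38 without wild-type array 1.

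The promoters of the 3 members with the lowest differences are shown for the CACCC and GC boxes that the family itself binds. RefSeq promoters of GRCm38.p6, 250 bases before to 50 after the annotated start, were at hand for 8 of the 10 members. The CACCC box (CACCC or GGGTG) was searched on both strands, along with an 8-base core of the MEF2 site (CTAAATTT or AAATTTAG), the site through which the MEK5-ERK5 cascade is known to induce Klf2. Matches are in capitals, each line reads 5′ to 3′ on the gene's strand, and Klf3 lies at chr5:64803271-64803570 (plus), Klf2 at chr8:72318812-72319111 (plus) and Klf4 at chr4:55532426-55532725 (minus).
Klf3: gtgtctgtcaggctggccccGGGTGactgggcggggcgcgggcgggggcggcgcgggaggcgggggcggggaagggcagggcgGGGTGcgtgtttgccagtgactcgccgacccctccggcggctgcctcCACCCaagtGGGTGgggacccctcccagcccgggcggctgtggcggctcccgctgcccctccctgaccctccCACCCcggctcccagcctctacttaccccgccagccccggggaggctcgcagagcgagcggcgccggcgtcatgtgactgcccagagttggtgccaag
Klf2: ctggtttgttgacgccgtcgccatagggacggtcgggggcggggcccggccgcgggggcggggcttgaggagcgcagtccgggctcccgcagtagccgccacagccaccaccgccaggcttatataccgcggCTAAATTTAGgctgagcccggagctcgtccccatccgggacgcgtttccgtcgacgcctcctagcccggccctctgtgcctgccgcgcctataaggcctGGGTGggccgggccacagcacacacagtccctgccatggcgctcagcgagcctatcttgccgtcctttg
Klf4: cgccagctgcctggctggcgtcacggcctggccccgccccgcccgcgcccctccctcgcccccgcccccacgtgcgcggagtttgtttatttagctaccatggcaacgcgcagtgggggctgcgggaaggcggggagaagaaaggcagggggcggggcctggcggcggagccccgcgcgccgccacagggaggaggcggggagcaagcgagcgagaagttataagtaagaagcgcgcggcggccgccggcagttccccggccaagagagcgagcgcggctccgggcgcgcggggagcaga

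The Klf3 promoter held 5 CACCC boxes, a number reached or passed by 1.02% of the 32851 promoters in the table. Klf2 held 1 and Klf4 held 0, and at least 1 was present in 57.5% of all promoters. Among the other members Klf7 held 3, Klf9, Klf13 and Klf15 held 1 each, and Klf6 held 0. The GC box (GGGCGG or CCGCCC), not marked in the lines above, was present 6 times in the Klf3 promoter, 4 times in Klf4, 3 times in Klf13, 2 times in Klf2, once each in Klf6, Klf7 and Klf15, 0 times in Klf9, and in 35.7% of all promoters. The Klf2 promoter held the MEF2 core 118 bases before the start, in a palindrome that matches from both strands, and 0.80% of all promoters held that core. None of the other 7 members' promoters did. The E-box CACGTG, the site of clock and Myc-family factors, was present 3 times in the Klf15 promoter, once each in Klf4 and Klf6, and in 7.15% of all promoters. The promoters of these members were rich in G and C, from 58.3% for Klf7 to 76.7% for Klf3, against a median of 52.7% over all promoters. A match describes letters and is no measurement of binding.

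**Figure D2:**
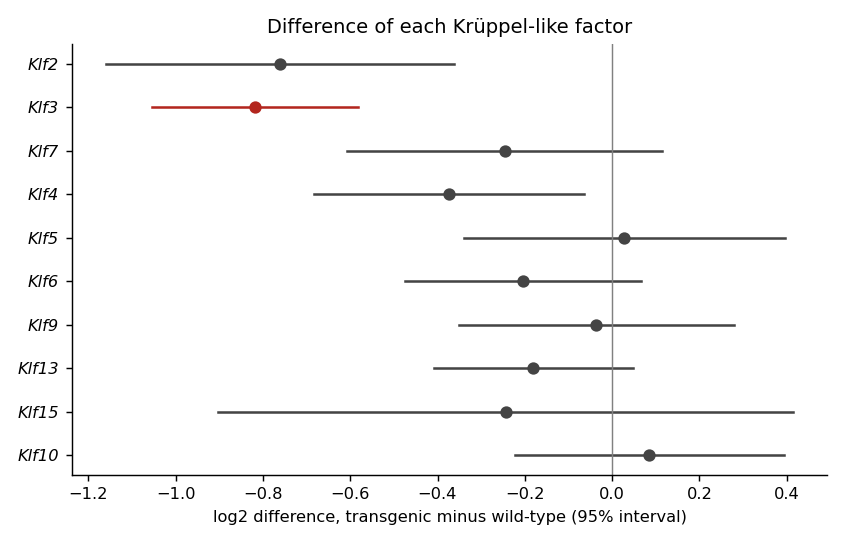
Log2 difference of each member, transgenic minus wild-type, as a point with its 95% interval from the limma fit over all features. Klf3, in red, is the called member, at -0.82. The intervals of Klf2 and Klf4 also lie below 0, while their adjusted p values of 0.0952 and 0.200 do not pass.

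Of the members that promote adipogenesis early, Klf4, which acts with Egr2 (Krox20) on Cebpb, gave 7.91 and 7.75 in wild-type samples and 7.56 and 7.36 in transgenic samples. The groups did not overlap on this scale. The difference was -0.37 ± 0.12 (95% interval -0.68 to -0.06, adjusted p = 0.200 in the limma fit), and with quantile normalization it was -0.17 (adjusted p = 0.321). Before scaling the groups overlapped, at 57740 and 71915 against 66553 and 57630, with wild-type array 1 the dimmest of the 4 arrays. The difference of Klf4 was below 0 in all 11 alternatives with all arrays, from -0.39 with a median shift to -0.17. The Klf4 spot was not saturated on any array.

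Klf5, induced by C/EBP factors and acting on the Pparg2 promoter, gave -0.25 and 0.02 in wild-type against -0.09 and -0.08 in transgenic samples. The transgenic values lay between the wild-type values. The difference was 0.03 ± 0.15 (95% interval -0.34 to 0.40, adjusted p = 0.936 in the limma fit), so a change of Klf5 above 1.32-fold either way lay outside the interval. Without wild-type array 1 it was -0.11. Klf6, which represses Dlk1 in preadipocytes and is an injury-response gene in liver, gave 7.45 and 7.37 against 7.13 and 7.28. Its groups did not overlap by a narrow margin, and the difference was -0.20 ± 0.11 (adjusted p = 0.366) or -0.04 with quantile normalization (adjusted p = 0.844). The unscaled Klf6 intensities, 41795 and 55215 against 49456 and 54559, overlapped.

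Klf9, a glucocorticoid and thyroid hormone target that acts on Pparg2 together with Cebpa, gave 4.88 and 4.61 in wild-type and 4.62 and 4.80 in transgenic samples. The groups overlapped nearly completely, the difference was -0.04 ± 0.13 (95% interval -0.35 to 0.28, adjusted p = 0.904 in the limma fit), and its sign changed with quantile normalization, with normexp correction and without wild-type array 1 (0.10). Klf15, a glucocorticoid-induced activator of the glucose transporter gene Slc2a4 and of amino acid breakdown, was dim, at -2.19 and -2.64 against -2.81 and -2.51. Its transgenic values lay on either side of wild-type array 2. The difference was -0.24 ± 0.26, and the 95% interval from -0.90 to 0.41 was the widest of the 10 members. Without wild-type array 1 the difference of Klf15 was -0.02.

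Klf13, whose action on Pparg was described in pig preadipocytes, gave 2.65 and 2.65 against 2.41 and 2.53 with its brighter probe. The groups did not overlap, and the difference was -0.18 ± 0.09 (adjusted p = 0.350 in the limma fit). The second Klf13 probe, designed on a cDNA clone, gave 1.65 and 1.27 against 1.30 and 1.46, overlapping, with a difference of -0.08 ± 0.16 (adjusted p = 0.819 in a limma fit over all probes). By the order of its coordinates that probe lies on the other strand than the RefSeq probe of Klf13, so it cannot be taken as a second reading of the same transcript. Klf10, also called TIEG1 and induced early by TGF-beta, gave 3.36 and 3.08 in wild-type and 3.36 and 3.25 in transgenic samples. Both transgenic values lay between the wild-type values, and the difference was 0.09 ± 0.12 (95% interval -0.22 to 0.39, adjusted p = 0.740 in the limma fit). It was 0.23 without wild-type array 1 and -0.056 without wild-type array 2.

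**Figure D3:**
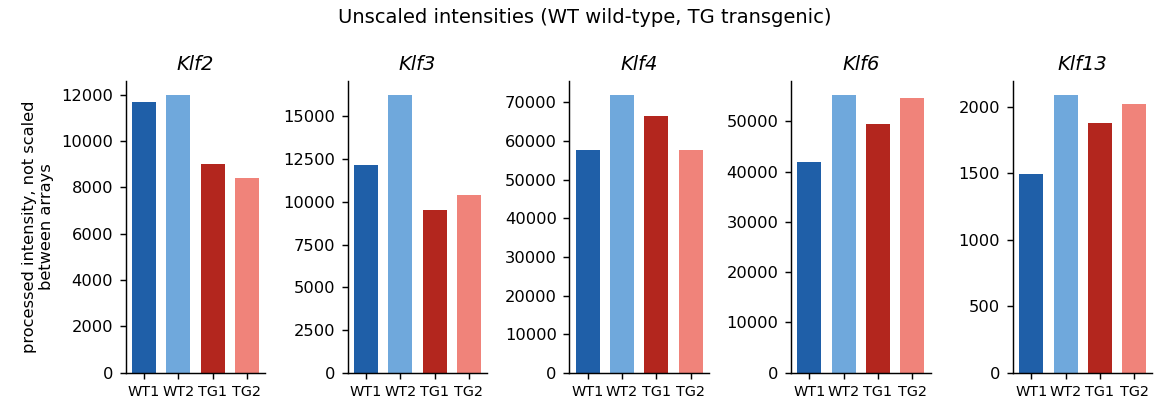
Processed intensity before any scaling between arrays, for the 5 members whose groups did not overlap after scaling (bars, 1 per array). Both wild-type bars exceed both transgenic bars for Klf2 and Klf3, while for Klf4, Klf6 and Klf13 the groups overlap.

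The probes of the members lie at these mm9 positions, per the array files: Klf2 at 74845137 to 74845196 of chromosome 8, Klf3 at 65221309 to 65221368 of chromosome 5, Klf4 at 55540167 to 55540226 of chromosome 4 and Klf5 at 99702656 to 99712388 of chromosome 14, where the probe spans a gap in the genome. Klf6 was read at 5869371 to 5869430 of chromosome 13, Klf7 at 64082265 to 64082324 of chromosome 1, Klf9 at 23240410 to 23240469 of chromosome 19 and Klf10 at 38224255 to 38224314 of chromosome 15. The Klf13 probes lie at 71082854 to 71082913 and 71032482 to 71032541 of chromosome 7, and that of Klf15 at 90425144 to 90425203 of chromosome 6. Each is printed as 1 spot per array, so an array gives 1 reading of each member.

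Of the 7 other family members on the array 4 were tested in the limma fit, of which 0 were called and 2, Klf12 and Klf14, had an unadjusted p under 0.05. Klf11 and Klf12 were lower on both transgenic arrays, with differences of -0.35 ± 0.19 (adjusted p = 0.385) and -0.47 ± 0.17 (adjusted p = 0.226 in the limma fit). Klf16 was higher on both, at 0.43 ± 0.18 (adjusted p = 0.277), and was called without wild-type array 2 (0.66, adjusted p = 0.0400), while without wild-type array 1 it was 0.20. Klf14, an imprinted gene linked to fat traits in human genetics, gave -3.85 and -3.47 against -2.85 and -3.06 (difference 0.70, adjusted p = 0.255 in the limma fit), but it entered the test through the transgenic arrays, since 1 of its 2 wild-type spots was not well above background, and with normexp correction its difference was 0.08. Klf1, the erythroid factor, was well above background on array 1 of each group, at -3.18 for wild-type and -4.23 for transgenic, and not on array 2 of either, and Klf8 and Klf17 were not well above background on any array. These 3 were not tested.

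**Figure D4:**
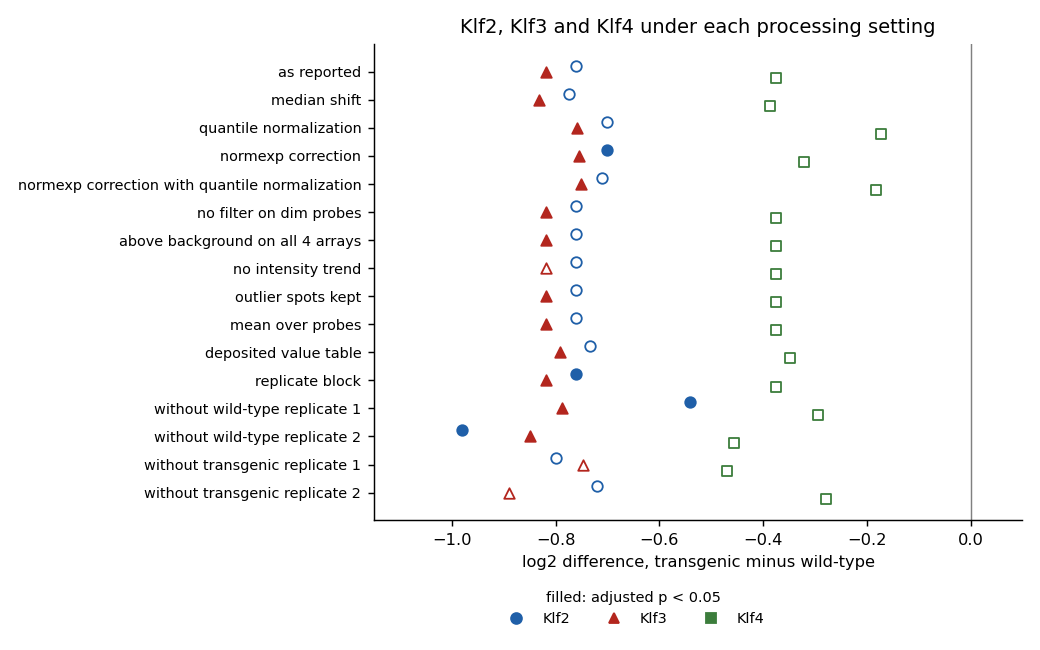
Log2 difference of Klf2, Klf3 and Klf4 under each of 16 settings, the reported one on top (filled marker, adjusted p under 0.05; open marker, not). Klf3 stays between -0.89 and -0.75, Klf2 between -0.98 and -0.54, and Klf4 lies nearest to 0, at -0.17, with quantile normalization.

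Genes that work with these factors in adipogenesis were taken as a list. Of 13 tested genes of the adipogenic circuit 2 rose and 1 fell, and the list's median was 0.05. Pparg, the master regulator of the adipocyte and a gene that Klf2 and Klf3 are known to oppose directly or through Cebpa, gave 1.98 and 1.96 against 3.42 and 3.35, and Egr2 gave 2.10 and 1.88 against 2.99 and 3.06. Both were higher on every transgenic array than on any wild-type array. The difference of Pparg was 1.41 ± 0.08 (adjusted p = 0.0156) and that of Egr2 1.03 ± 0.11 (adjusted p = 0.0280 in the limma fit), the latter with adjusted p = 0.0772 and 0.0798 without transgenic arrays 1 and 2. Ebf2, a factor of the brown fat lineage, fell by 0.73 ± 0.08 (adjusted p = 0.0315), a call that was likewise lost without either transgenic array (adjusted p = 0.154 and 0.140). Cebpa had a difference of 0.61 (adjusted p = 0.0989), Cebpb of 0.15 (adjusted p = 0.470) and Cebpd of -0.35 (adjusted p = 0.183 in the limma fit).

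Co-repressors and co-factors did not pass for any of 13 tested genes (median -0.01, limma fit, with 1 of the 13 at an unadjusted p under 0.05). The CtBP genes through which Klf3 acts had differences of -0.13 ± 0.08 (Ctbp1, adjusted p = 0.443) and -0.05 ± 0.09 (Ctbp2, adjusted p = 0.824). Wwp1, a ubiquitin ligase of Klf2 and Klf5, had the lowest value, -0.73 (adjusted p = 0.167), and Sin3a was at 0.29 (adjusted p = 0.328). Of the Sp factors, the nearest relatives of the family, 6 of 9 were tested and 0 were called, also at an unadjusted p under 0.05. Sp2 was at -0.27 (adjusted p = 0.280) and Sp4 at 0.29 (adjusted p = 0.418 in the limma fit).

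Reported targets went in several directions. Of 9 tested genes of the Klf15 list 1 rose, Slc2a4, the insulin-responsive glucose transporter, which gave -2.02 and -2.11 against -0.26 and -0.05 (difference 1.90 ± 0.16, adjusted p = 0.0226). That call was lost without transgenic array 1 (adjusted p = 0.0578) or transgenic array 2 (adjusted p = 0.0637 in the limma fit). Lpl had the next smallest p, at 0.59 (adjusted p = 0.0707), and the proline oxidase gene Prodh had a difference of -0.86 (adjusted p = 0.128 in the limma fit). Of the 9 genes 6 lay above 0 and 3 below, with 4 at an unadjusted p under 0.05 (median 0.20). Of 12 tested genes of the list of Klf2 and Klf4 targets, taken from endothelial cells and lymphocytes, 1 fell, the integrin chain Itgb7 (-1.84 ± 0.20, adjusted p = 0.0283), which Klf2 is known to control in T cells. Vcam1 had the next smallest p, at 0.60 (adjusted p = 0.0517). The thrombomodulin gene Thbd was at -0.63 (adjusted p = 0.0776) and Edn1 at -1.16 (adjusted p = 0.112). S1pr1 was at 2.56 (adjusted p = 0.0840, with 1 of 2 wild-type spots not well above background) and endothelial nitric oxide synthase Nos3 at 0.84 (adjusted p = 0.177 in the limma fit). Of the 12 genes 7 lay above 0 and 5 below, with 9 at an unadjusted p under 0.05 (median 0.32). Of the 12, 3 were let in through the transgenic arrays alone. Of 12 genes of the MEK5-ERK5-MEF2 cascade upstream of Klf2, 0 were called and 1 had an unadjusted p under 0.05 (median -0.07, limma fit). Heg1 had a difference of -0.74 (adjusted p = 0.208) and Map3k3 of -0.24 (adjusted p = 0.424).

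Programmes that induce Krüppel-like factors were set beside them. Of 20 tested immediate early genes 2 rose and 1 fell, with a median of -0.25. Egr2 and the orphan receptor Nr4a2 (1.37 ± 0.19, adjusted p = 0.0449) rose and the mRNA decay factor Zfp36 (-0.62 ± 0.09, adjusted p = 0.0488) fell, while Fos had a difference of -0.81 (adjusted p = 0.0815 in the limma fit). The calls of Nr4a2 and Zfp36 were lost in several settings, among them quantile normalization (adjusted p = 0.0582 and 0.0657) and the fit without wild-type array 1 (adjusted p = 0.0590 and 0.0520). The cells were sorted before lysis, and the part of cell handling in these levels was not tested. Of 13 glucocorticoid-induced genes 1 rose, the kinase gene Sgk1 (0.63 ± 0.09, adjusted p = 0.0459), with adjusted p = 0.234 and 0.187 without transgenic arrays 1 and 2, and 11 of the 13 had a difference below 0 (median -0.30). Of 16 clock genes 0 were called and 1 had an unadjusted p under 0.05 (median -0.05), and Nfil3 had the smallest p (-0.45, adjusted p = 0.146), followed by Bhlhe40 (0.29, adjusted p = 0.306 in the limma fit). Within groups, array 2 minus array 1 was -1.79 in wild-type and 1.34 in transgenic samples for Dbp, and -0.74 and 1.42 for Nr1d2. Per1, Per2, Per3, Cry2, Nr1d1, Tef and Hlf had gaps of the same signs as Dbp, and Arntl, Npas2 and Cry1 of the opposite signs. The other clock genes had 1 sign in both groups. Klf9 (-0.26 and 0.18), Klf15 (-0.45 and 0.30), Klf3 (-0.06 and 0.14) and Klf6 (-0.08 and 0.16) had the signs of Dbp, and the other members did not. Over all features the median size of such a gap was 0.22 in wild-type and 0.12 in transgenic samples. The share of all features with these signs was not counted. The part of the clock in these levels was not tested. Of 13 TGF-beta genes 0 were called and 7 had an unadjusted p under 0.05 (median -0.30, limma fit), with the cell cycle inhibitor Cdkn1a at -0.85 (adjusted p = 0.0805) and Skil at -0.44 (adjusted p = 0.116). Cdkn1a was called with no filter on dim probes (adjusted p = 0.0384) and was at -0.45 with the mean over its probes (adjusted p = 0.273).

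**Figure D5:**
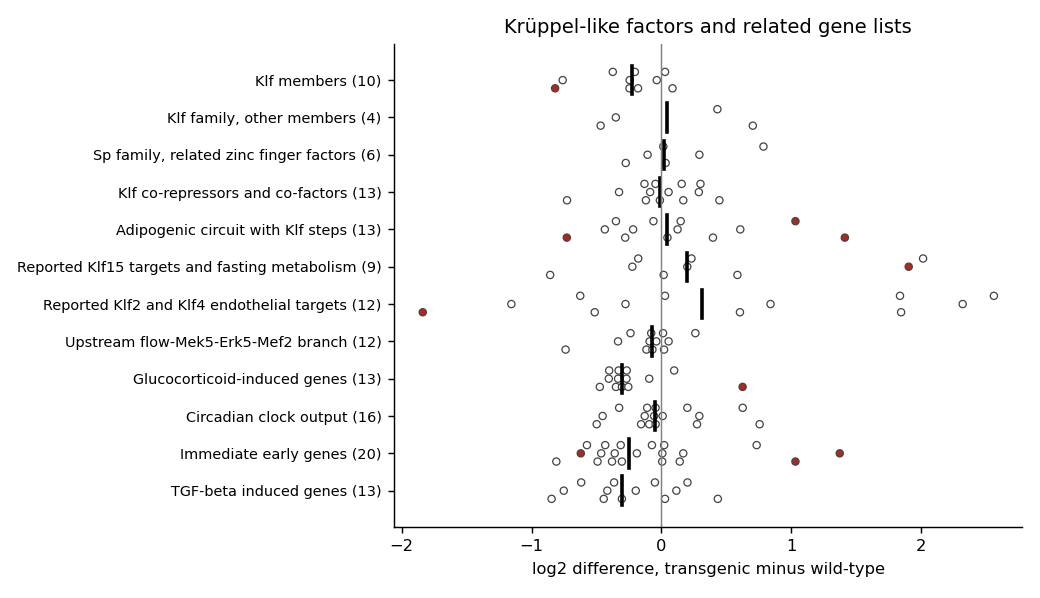
Log2 differences, transgenic minus wild-type, of the Krüppel-like factors and of the tested genes of each related list (points, called genes filled in red; black bar, the list's median; number of genes in brackets). The Krüppel-like factors have a median of -0.22 and span -0.82 to 0.09, and their 1 called gene is Klf3.

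Several members are high in other cells that a sort can carry along, Klf2 and Klf4 in endothelium and Klf2 in lymphocytes and macrophages. Many markers of such cells entered the test because both transgenic arrays, and not both wild-type arrays, read them above background, so the counts and medians of these lists are descriptions. Of 15 tested endothelial markers, 7 of them let in that way, 2 rose, Ptprb (2.74) and Egfl7 (2.08), and 12 had a difference above 0 (median 1.74). The other 3 were below 0: the angiopoietin receptor Tek at -0.51 (adjusted p = 0.0765), the VEGF receptor Kdr at -0.28 (adjusted p = 0.592) and endoglin, Eng, at -0.37 (adjusted p = 0.289 in the limma fit). These 3 were above background on every array. So were Ptprb, Egfl7, Vwf (2.20), Esam (0.90) and Pecam1 (0.74), which lay above 0. The summed linear level of the endothelial list, relative to the 75th percentile, was 29.6 and 25.2 on the wild-type arrays and 25.9 and 25.8 on the transgenic arrays, and 9 and 12 of the 16 markers passed the background criterion in wild-type samples against 15 on each transgenic array. Such a sum follows its brightest markers and says little of the dimmer ones. Here these were Kdr, Tek and Eng (wild-type means 3.33, 3.11 and 2.71). In the macrophage list it was Itgam (5.58), and in the Schwann cell list Pmp22 (5.91). Of 16 macrophage markers, 6 let in through the transgenic arrays, 10 rose, among them Cd74 (3.21), C1qc (3.099), Pf4 (3.03) and Mrc1 (2.97), where C1qc and Mrc1 were above background on 1 of 2 wild-type arrays (median 1.96, summed level 58.0 to 59.1 against 67.7 to 69.5). Of 8 lymphocyte markers, 3 let in that way, 2 rose, Lck (1.93) and Cd3d, the latter below the background criterion in both wild-type samples, while Cd3e was at -1.01 (adjusted p = 0.162; median 1.15, summed level at most 15.9 against at most 11.6). Of 10 smooth muscle and pericyte markers, 1 let in that way, Acta2 (2.62), Notch3 (1.82) and Rgs5 rose, Rgs5 being above background on the transgenic arrays alone, and Kcnj8 fell by 1.38 (median 0.62, summed level 17.2 to 17.3 against 21.8 to 22.2). Of 7 Schwann cell markers Ngfr rose (3.31, adjusted p = 0.0407) and Mbp fell by 0.63 (adjusted p = 0.0499), with a median of -0.10 and a summed level of 61.7 to 76.2 against 53.2 to 53.8. The 1 tested erythroid marker, Hba-a1, was at 0.85 (adjusted p = 0.443 in the limma fit). Of 7 mature adipocyte markers 0 passed in the limma fit and 5 had an unadjusted p under 0.05, with the smallest adjusted p = 0.0591 for Plin1 (median 1.17, summed level 4.13 to 5.12 against 5.24 to 6.43). Of 13 markers of the sorted progenitors 1 fell, Cd24a (median -0.23, summed level 2826 to 3500 against 2750 to 2772), and their defining markers Pdgfra and Ly6a were present on all arrays. The part of other cells in the levels of the Krüppel-like factors was not tested.

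The genes whose pattern over the 4 arrays was most like that of Klf3 were Dio2 and Lgi3, by the root mean square difference of array-centred log2 signals, at 0.03 and 0.04. Dio2, the deiodinase that activates thyroid hormone, gave -1.75 and -1.84 against -2.62 and -2.50, with a difference of -0.77 ± 0.19 (adjusted p = 0.132 in the limma fit). Lgi3, a secreted protein made in fat and brain, gave 1.47 and 1.49 against 0.64 and 0.75 (difference -0.79 ± 0.10, adjusted p = 0.0411), a call that was lost with quantile normalization (adjusted p = 0.0541), with a median shift (adjusted p = 0.0806) and without transgenic array 1 (adjusted p = 0.170) or transgenic array 2 (adjusted p = 0.113). With 4 arrays many genes share such a pattern, and the likeness is a description.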

How the data were processed

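RNA of 2 wild-type and 2 transgenic samples was labelled with Cy3 in 1 colour, per the labels' protocols. The authors deposited scanner files of Agilent Feature Extraction 10.7.3.1 (design 028005, mm9), per the file headers. The processed intensity deposited there is background-subtracted and detrended, and raw spot and background intensities served for the normexp alternative (offset 50). The deposited value table holds log2 values. Its columns, with medians of 0.193, -0.021, -0.045 and 0.019, correlated at 0.9998 or above with the log2 signals used here, and how they were centred stays unknown. All arrays shared 1 slide and 1 scan.

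Control and outlier spots were left out, replicate spots were averaged as log2 values, and each array's 75th percentile over 59305 non-control spots was subtracted. Names came from RefSeq accessions (GRCm38.p6, names alone) for 26582 of 55681 probes and otherwise from the design. A gene entered by its brightest probe if all arrays of either group had that probe well above background, and 24518 features were tested with limma 3.58.1 in R 4.3.3 (eBayes with intensity trend, 2-sided, Benjamini-Hochberg). This lets in 4255 features through the transgenic arrays alone. The fit was also run on simulated data with known changes and independent noise of equal spread in both groups. The spread here differed between groups, so that run does not cover this case. The members and lists were chosen with earlier results of these data known, and lists are described by counts and medians. All members are given. Of each related gene list the called genes with the smallest p, up to 4, are named, or else the 2 with the smallest p. For a called member the 2 most similar genes above background on all arrays are named, and any further gene was chosen once its values were known. Exons and untranslated regions of mm9 are not annotated here.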

Additional observations from a re-analysis of the deposited data

How the results depend on the processing

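Over 11 alternatives with all arrays, Klf3 kept its direction in all and its call in 10 (-0.83 to -0.75), and Klf2, Klf4, Klf6, Klf7, Klf13 and Klf15 stayed below 0. The sign of Klf9 turned with quantile normalization (0.0098), normexp correction (0.021) and both (0.014), and leaving out 1 array gave -0.17 to 0.10 for Klf9, -0.056 to 0.23 for Klf10 and -0.11 to 0.17 for Klf5. The number of called members was 2 with normexp correction and 0 without an intensity trend, and 0 to 2 with 1 array left out, where the lone array of a group is assumed to vary like the other group. The count of called features was 695 with no filter on dim probes, 0 without an intensity trend (4124 at an unadjusted p under 0.05), and 90 to 3998 with 1 array left out. With the replicate number as a block (replicate block), 774 features and 2 members, Klf2 and Klf3, were called (Klf2 adjusted p = 0.0325). Deviations of same-numbered arrays correlated at 0.003 over all features. That value shows no pairing by number over the features as a whole, and it cannot tell whether some samples were handled together. Signal over background limits Klf14 and Klf15, and the number of arrays limits every member.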
